A study of Mus musculus with 12 samples.

Results

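The genes of respiratory chain complexes I, II and III were taken as every gene in the count files whose symbol starts with *Nduf* or *Uqcr*, or is *Sdha*, *Sdhb*, *Sdhc* or *Sdhd*, without symbols that contain -ps. This rule gave 57 of the 35976 genes listed. All 57 had counts in each of the 12 libraries and passed the filter on low counts, so that they were among the 18853 genes tested. They were 36 subunits of complex I, 7 complex I assembly factors, the 4 subunits of complex II, 8 subunits of complex III, and *Ndufa4* with its relative *Ndufa4l2*.

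Complex I oxidizes NADH and complex II oxidizes succinate, and both hand their electrons to ubiquinone in the inner mitochondrial membrane. Complex III passes these electrons on to cytochrome c, and complexes I and III pump protons that ATP synthase uses. Most subunits are encoded in the nucleus, whereas several subunits of complex I and cytochrome b of complex III are encoded by mitochondrial DNA. Skeletal muscle, a thin layer of which lies below mouse skin, is known for a high content of this chain.

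RNA-seq libraries were made from scars of male mice aged 8 to 12 weeks, with 3 mice in each of 4 groups. *Tem1*WT/WT mice carried intact *Tem1*, and in *Tem1*lacZ/lacZ mice the only exon of *Tem1* had been exchanged for a *lacZ* reporter in all cells, on a line backcrossed to C57BL/6J for 10 generations. Every mouse received a 1.5-cm wound in the back skin after hair removal and, 6 days later, a plastic device over it. In the traction groups the device was lengthened by 1 mm each day to 8 mm in total, and in the sham groups it was left as it was. The libraries are called here by genotype (WT or lacZ), treatment and replicate number.

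*Cd248*, the gene that encodes Tem1, had 3883 to 16413 counts in the 6 WT libraries and 0 to 13 counts in the 6 lacZ libraries. Library totals lay between 41536788 and 64644293 counts. The summed CPM (counts scaled to library size after TMM normalization) of 9 fibroblast markers lay between 23826.5 and 122285, and that of 14 epidermal and hair follicle markers between 17116.4 and 49776.2. Dermal and epidermal RNA was thus present in every library. As whole scars were sequenced, fewer cells of a type and less RNA per cell cannot be told apart in any value below.

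The 57 genes together took 0.209% to 0.352% of a library's counts. Their summed level was 2759, 2513 and 2521 CPM in the 3 WT sham libraries and 2588, 2200 and 2325 CPM with traction. It was 3060, 3465 and 3119 CPM in the lacZ sham libraries and 3364, 2216 and 2601 CPM with traction. The lacZ sham libraries were all above the 6 WT libraries, whereas the lacZ traction libraries spread from the level of the lacZ sham group down to that of WT traction. By group means, 53 of the 57 genes were highest in lacZ sham scars and 45 were lowest in WT traction scars.

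**Figure D1:**
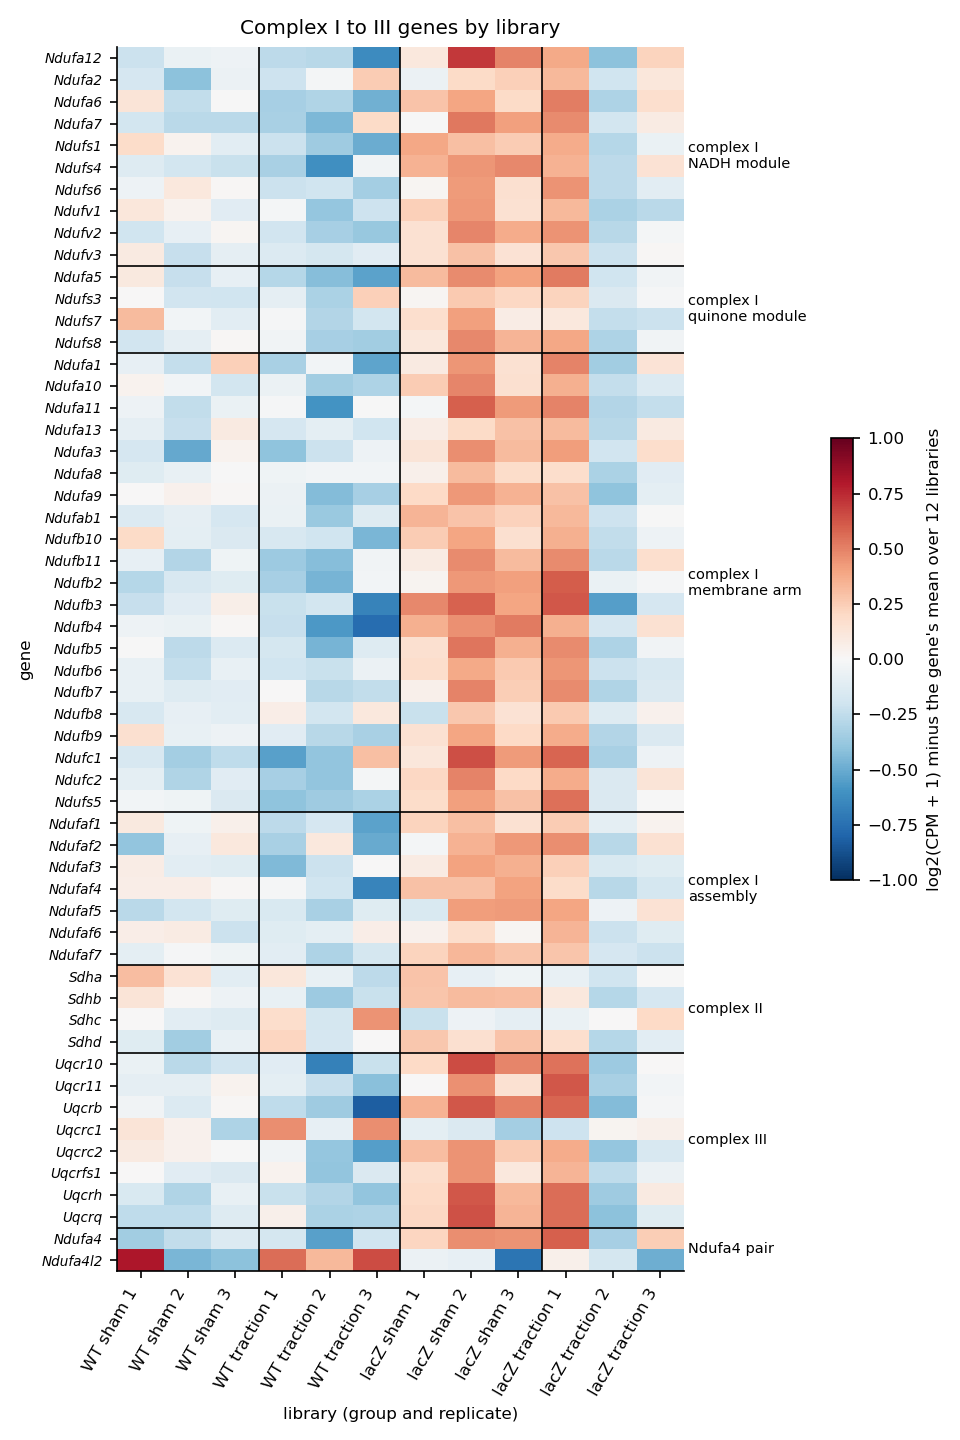
Each row is one of 56 of the 57 genes and each column a library, and the colour gives log2(CPM + 1) minus the gene's mean over the 12 libraries. The 3 lacZ sham columns and lacZ traction 1 are mostly red, and *Sdhc*, *Uqcrc1* and *Ndufa4l2* run against the other genes.

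The libraries did not contribute evenly to this order. The highest value of 31 genes was in lacZ sham 2 and that of 15 genes in lacZ traction 1, and the lowest value of 20 genes each was in WT traction 2 and WT traction 3. Averaged over the 57 genes, log2(CPM + 1) stood 0.39 above the mean of all libraries in lacZ sham 2 and 0.36 above it in lacZ traction 1. It was -0.25 in lacZ traction 2 and -0.03 in lacZ traction 3, so that the 3 lacZ traction libraries differed from each other by more than the WT libraries did.

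Per kilobase of transcript, complex III genes led in every group. *Uqcrh*, which encodes the hinge protein of complex III, and *Uqcrb*, which encodes its ubiquinone-binding subunit, were the highest and the next highest in all 4 groups. In WT sham scars they had 164 ± 13.3 and 129 ± 7.02 CPM per kilobase (mean ± SD, n = 3). *Ndufaf6*, an assembly factor, was lowest in that group with 3.07 ± 0.447 CPM per kilobase. Assembly factors, which act on complex I but are not part of it, made up 5 of the 6 lowest genes there. The exception, *Ndufab1*, encodes the mitochondrial acyl carrier protein and had 5.18 ± 0.145 CPM per kilobase. These ranks depend on the transcript length taken for each gene, which was 3479 bases for *Ndufab1* and 3632 bases for the assembly factor *Ndufaf4*. Before division by length they had 18.0 and 19.2 CPM in WT sham, above *Ndufc1* with 4.74 CPM.

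**Figure D2:**
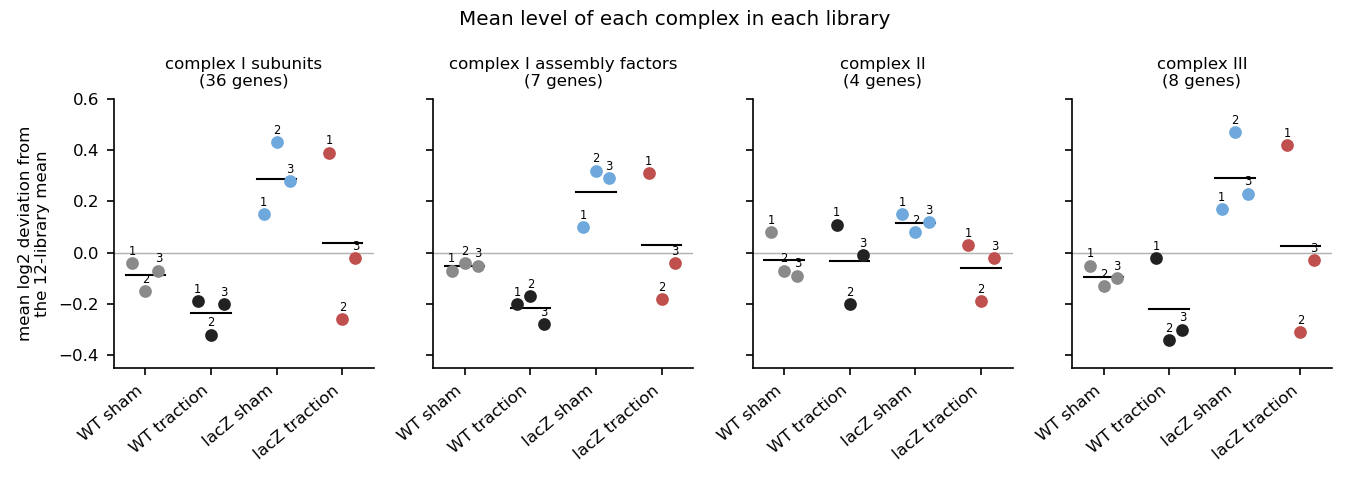
Points give, for each library (numbered by replicate), the mean over a complex's genes of log2(CPM + 1) minus each gene's 12-library mean, and bars give the group means. For complex I subunits, lacZ sham lies at 0.15 to 0.43 and WT sham at -0.15 to -0.04, whereas for complex II the libraries stay between -0.20 and 0.15.

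The first comparison asked whether stretching a wild-type wound alters these genes. Most values were somewhat lower with traction, but 0 of the 57 genes passed the test, edgeR's quasi-likelihood test with Benjamini-Hochberg adjustment over all genes tested and an adjusted p under 0.05. In the same comparison 9.15% of all genes tested were called. That share rested on single libraries. With all libraries 1725 of 18853 genes were called. The number was 0 without WT sham 1, without WT sham 2 or with only the groups compared, 360 without WT traction 1 and 2861 without WT traction 2. Leaving out lacZ sham 3, which is in neither group compared but enters the filter, the scaling and the shared estimate of spread, left 169. DESeq2 and limma-voom also called 0 of the 57 genes, where they called 21.5% and 3.97% of all genes tested. The log2 fold change was below 0 for 46 genes and above 0 for 11, with a median of -0.13 against -0.01 over all genes tested. An unadjusted p under 0.05 was reached by 3 genes, all lower, against 14.7% of all genes tested. The libraries of the 2 groups did not overlap for 17 genes, again all lower, against 18.0% of all genes tested. The direction was not firm: 30 genes were below 0 and 27 above after a correction of each library for transcript length and GC content (median -0.03), and 32 were below and 25 above without WT traction 2.

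Within complex I, the log2 fold change with traction in WT scars was below 0 for 8 of the 10 genes of the NADH module, which takes electrons from NADH. It was below 0 for 4 of 5 genes of the quinone module, which passes them to ubiquinone. It was also below 0 for 18 of 21 genes listed with the proton-pumping membrane arm, *Ndufa9* among them. *Ndufb4*, an accessory subunit of the membrane arm, had the smallest adjusted p. Its level was 20.0, 19.7 and 20.9 CPM in WT sham and 17.5, 13.6 and 11.8 CPM in WT traction. The groups did not overlap, and its log2 fold change was -0.50 ± 0.17 (SE, adjusted p = 0.0831 by edgeR).

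*Ndufs1*, the largest core subunit, which carries iron-sulphur clusters, had 116, 104 and 94.7 CPM in WT sham and 87.6, 79.4 and 72.0 CPM in WT traction. These libraries did not overlap either, with a log2 fold change of -0.40 ± 0.17 (adjusted p = 0.138 by edgeR). The other core subunits lay closer together. *Ndufv1*, which binds the flavin, was at -0.21 and *Ndufv2* at -0.22, and *Ndufs7* and *Ndufs8*, which carry the last iron-sulphur clusters before ubiquinone, were at -0.24 and -0.15. *Ndufs3* was at 0.10.

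All 7 assembly factors had a log2 fold change below 0 in WT scars. *Ndufaf1*, which helps to build the membrane arm, had 15.9, 14.4 and 15.4 CPM in WT sham and 12.2, 13.1 and 9.94 CPM in WT traction. The groups did not overlap, and the log2 fold change was -0.38 ± 0.15 (adjusted p = 0.121 by edgeR).

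Complex II, which also belongs to the citric acid cycle, was divided. *Sdha*, the flavoprotein, and *Sdhb*, the iron-sulphur subunit, had log2 fold changes of -0.19 and -0.25 with traction in WT scars. The membrane anchors *Sdhc* and *Sdhd* were at 0.26 and 0.20. *Sdhc* had 40.5, 37.5 and 37.0 CPM in WT sham and 46.0, 35.7 and 55.7 CPM in WT traction, so that the groups overlapped.

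Of complex III, 6 of 8 genes were below 0. *Uqcrc2*, a core protein, was at -0.35 and *Uqcrfs1*, the Rieske iron-sulphur protein, at -0.08, whereas the other core protein gene, *Uqcrc1*, was at 0.34 ± 0.18 (adjusted p = 0.22 by edgeR). *Uqcrc1* had 97.9, 92.2 and 71.8 CPM in WT sham and 123, 84.1 and 124 CPM in WT traction. WT traction 2 lay within the sham range, so the groups overlapped.

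*Ndufa4* encodes a protein first assigned to complex I that is now placed with cytochrome c oxidase, and *Ndufa4l2* is a relative of it known as a hypoxia-induced gene. With traction in WT scars *Ndufa4* was at -0.06 and *Ndufa4l2* at 0.42 ± 0.33 (adjusted p = 0.409 by edgeR). *Ndufa4l2* had 83.5, 34.1 and 35.4 CPM in WT sham and 70.2, 59.4 and 74.9 CPM in WT traction. WT sham 1 was above every traction library and the other sham libraries were below them. Without WT sham 1 the log2 fold change was 0.97, still without passing the test. WT sham 1 also had the highest sum of skeletal muscle markers.

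**Figure D3:**
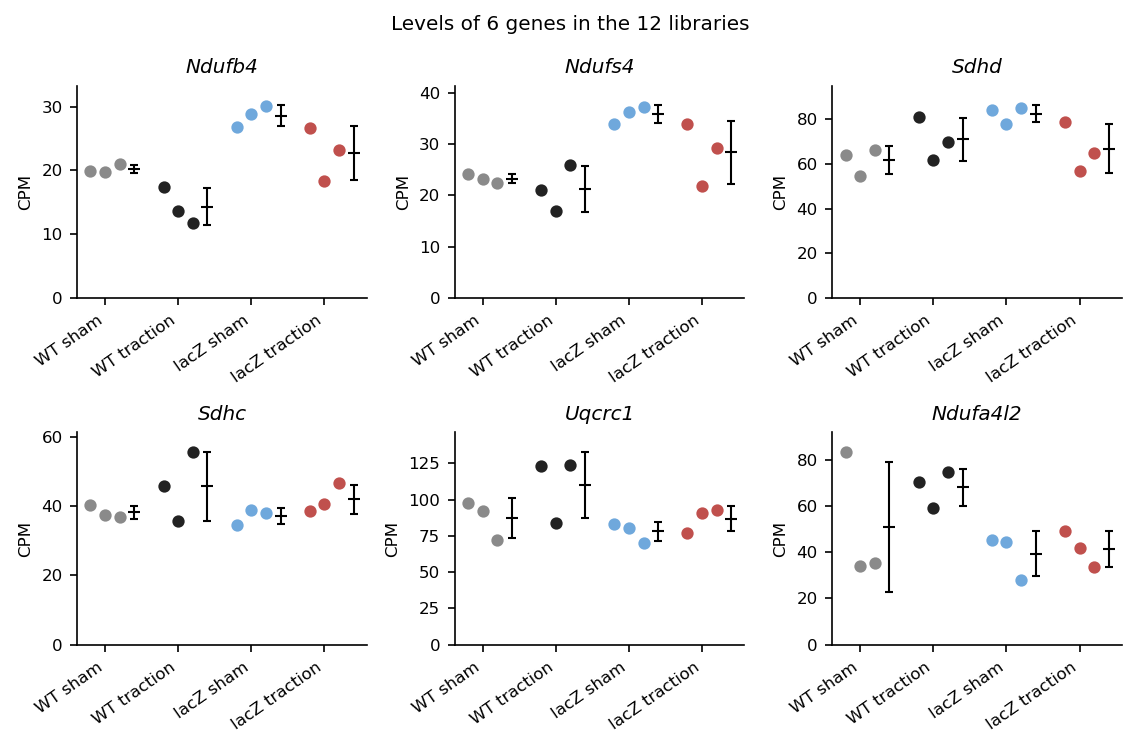
TMM-normalized CPM of 6 genes in the 12 libraries, with the mean and SD of each group (n = 3) at its right. *Ndufb4* and *Ndufs4* are higher in every lacZ sham library than in every WT sham library, whereas *Sdhc* and *Uqcrc1* overlap and *Ndufa4l2* is spread widely in WT sham scars.

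Cell type markers moved in the same comparison, where 9.15% of all genes tested were called. No gene, and so no marker, was called without WT sham 1, without WT sham 2 or with only the groups compared. In WT scars with traction the 20 skeletal muscle markers had a median log2 fold change of -2.69, with 1 called lower, and the 12 adipocyte markers one of -1.38, with 0 called. Levels were also summed over the 20 muscle markers and over all 13 adipocyte markers listed. The sums were 1777 to 18100 CPM for muscle and 1672 to 2108 CPM for adipocytes in WT sham. In WT traction they were 445 to 2814 and 389 to 1537 CPM. The 7 endothelial markers had a median of 1.11, with 5 called higher, and the summed 9 fibroblast markers were 28558 to 48574 CPM in sham and 46952 to 122285 CPM with traction. Of the fibroblast markers 1 was called higher, *Pdgfra*. The 9 neutrophil markers tested had a median of 4.86, with 5 called higher. The sum of all 10 neutrophil markers listed was 118 to 129 CPM in WT sham and 9051, 688 and 415 CPM in WT traction. WT traction 1 thus stood far above the others. The 10 macrophage markers had a median of 0.55, with 1 called higher. The 14 epidermal and hair follicle markers had a median of -1.74, with 10 below 0, 4 above 0 and 2 called lower. Their sum was 17905, 25860 and 24302 CPM in WT sham and 19741, 17116 and 22420 CPM in WT traction, which overlapped. No marker of the muscle, adipocyte, endothelial and fibroblast lists was at 0 in all libraries of a group, whereas the neutrophil marker *Ly6g* was at 0 in all WT sham libraries. The part of these cell types in the values of the respiratory chain genes was not tested.

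The same question was put to scars without Tem1, those of *Tem1*lacZ/lacZ mice. Again 0 of the 57 genes were called, where 0% of all genes tested were called by edgeR's quasi-likelihood test. DESeq2 called 0 of the 57, where it called 0.149% of all genes tested. Limma-voom called 2, *Sdhb* and *Ndufaf4*, both lower, where it called 2.31% of all genes tested. The median log2 fold change was -0.24 against -0.01 over all genes tested, with 54 genes below 0 and *Sdhc*, *Uqcrc1* and *Ndufa4l2* above it. An unadjusted p under 0.05 was reached by 2 genes, both lower, against 2.46% of all genes tested. By limma-voom, run with a weight for each library, 34 genes reached it, all lower, and the median was -0.36. The share of all genes at that threshold was not counted for limma-voom. The libraries did not overlap for 3 genes, all lower, against 6.16% of all genes tested.

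*Sdhb* had the smallest p. It had 94.7, 97.0 and 96.8 CPM in lacZ sham and 83.9, 63.6 and 69.1 CPM in lacZ traction, with no overlap. Its log2 fold change was -0.41 ± 0.13 (unadjusted p = 0.0104, adjusted p = 0.598 by edgeR). *Ndufaf4*, an assembly factor, had 22.8, 22.9 and 24.8 CPM in lacZ sham and 21.2, 15.0 and 16.2 CPM in lacZ traction, also without overlap, with a log2 fold change of -0.43 ± 0.19 (adjusted p = 0.601 by edgeR). *Ndufa9*, a subunit near the quinone site that was listed here with the membrane arm, was at -0.38 ± 0.18.

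The median of this comparison rested on single lacZ traction libraries. It was -0.38 without lacZ traction 1 and -0.11 without lacZ traction 2, and no gene of the 57 was called in either case. The number with an unadjusted p under 0.05 was 30 without lacZ traction 1, all lower, and 1 without lacZ traction 2. The share of all genes at that threshold was not counted in either case.

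Comparison of the genotypes in sham scars gave the widest separation. The log2 fold change of *Tem1*lacZ/lacZ against *Tem1*WT/WT was above 0 for 53 of 57 genes, with a median of 0.37 against -0.01 over all genes tested. The libraries did not overlap for 40 genes, all higher in lacZ sham, against 13.0% of all genes tested. An unadjusted p under 0.05 was reached by 24 genes, all higher, against 5.03% of all genes tested. None passed the adjusted threshold: 0 genes were called, where 0.0106% of all genes tested were called, and the smallest adjusted p was 0.409 by edgeR's quasi-likelihood test. DESeq2 and limma-voom also called 0 of the 57, and they called 0.228% and 0.00530% of all genes tested. The count of 24 depended on single libraries and on the fit. It was 5 without lacZ sham 2, 8 without lacZ sham 3 and 20 without lacZ sham 1. It was 7 without WT sham 2, 13 without WT sham 1 and 12 without WT sham 3. Without lacZ traction 1 the count was 30, with only the groups compared 35 and by limma-voom 40. Shares of all genes at that threshold were not counted in these fits.

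*Ndufs4*, an accessory subunit of the NADH module, had the smallest p. It had 24.1, 23.2 and 22.5 CPM in WT sham and 33.8, 36.3 and 37.2 CPM in lacZ sham. The groups lay well apart, with a log2 fold change of 0.62 ± 0.18 (unadjusted p = 0.00629, adjusted p = 0.409 by edgeR). *Ndufb4* had 26.8, 28.8 and 30.1 CPM in lacZ sham, above its 3 WT sham values, with a log2 fold change of 0.50 ± 0.17.

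All 36 complex I subunits were above 0 in this comparison. The median was 0.34 in the NADH module, 0.31 in the quinone module and 0.43 in the membrane arm, and 0.35 among the assembly factors. Of the core subunits, *Ndufv1* was at 0.26, *Ndufv2* at 0.43, *Ndufs1* at 0.28, *Ndufs3* at 0.31, *Ndufs7* at 0.16 and *Ndufs8* at 0.41.

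Complex II had a median of 0.11 and complex III one of 0.45. *Sdhd* had 64.0, 54.5 and 66.1 CPM in WT sham and 84.1, 77.9 and 84.9 CPM in lacZ sham, with no overlap and a log2 fold change of 0.42 ± 0.15. *Sdhb* was at 0.27, and *Sdha* and *Sdhc* were at -0.06 and -0.04. *Uqcrc2* had 181, 175 and 169 CPM in WT sham and 211, 232 and 202 CPM in lacZ sham, which did not overlap, with a log2 fold change of 0.30, and *Uqcrfs1* was at 0.34. *Uqcrc1* was at -0.16 with overlapping libraries.

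The members of the *Ndufa4* pair lay apart. *Ndufa4* had 40.3, 43.3 and 47.0 CPM in WT sham and 60.2, 71.5 and 71.0 CPM in lacZ sham. Its groups did not overlap, and the log2 fold change was 0.63 ± 0.21 (adjusted p = 0.409 by edgeR). *Ndufa4l2* had 45.4, 44.5 and 28.0 CPM in lacZ sham, overlapping its WT sham libraries, and a log2 fold change of -0.37 ± 0.33. Without WT sham 1 this log2 fold change was 0.18.

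**Figure D4:**
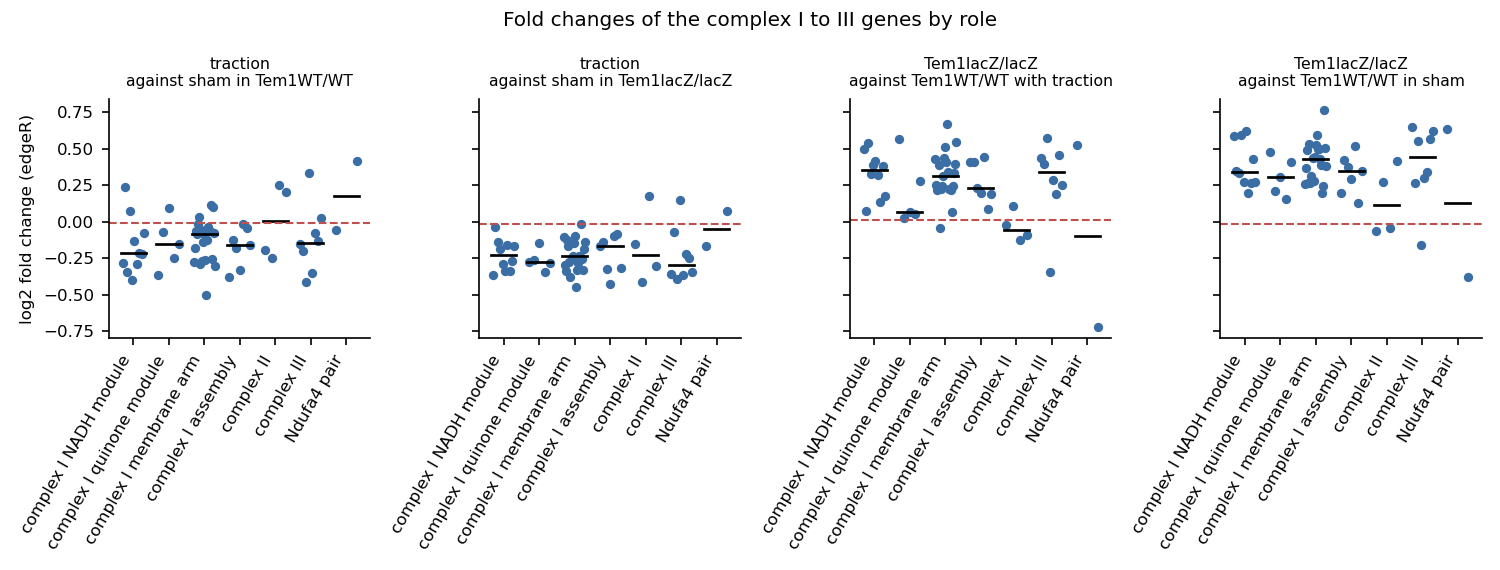
Each point is the log2 fold change (edgeR) of one gene, black bars are medians of each role and the dashed line is the median of all genes tested. In sham scars every complex I subunit is above 0 in *Tem1*lacZ/lacZ against *Tem1*WT/WT, whereas complex II straddles the dashed line.

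Transcript length moved with this difference. Of the 57 genes, 48 were in the shortest of 4 equal classes of the genes tested that have a length, with transcripts of up to 1711 bases. All 4258 genes of that class had a median log2 fold change of 0.26 between the genotypes in sham scars, and the class of the longest transcripts had one of -0.27. The 48 respiratory chain genes had a median of 0.40, and 34 of them did not overlap, where 24.6% of all genes of the class were higher without overlap. After each library was corrected for transcript length and GC content, the median of the 57 genes was 0.16, with 48 genes above 0 and 2 with an unadjusted p under 0.05. The part of length in this difference was not tested.

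**Figure D5:**
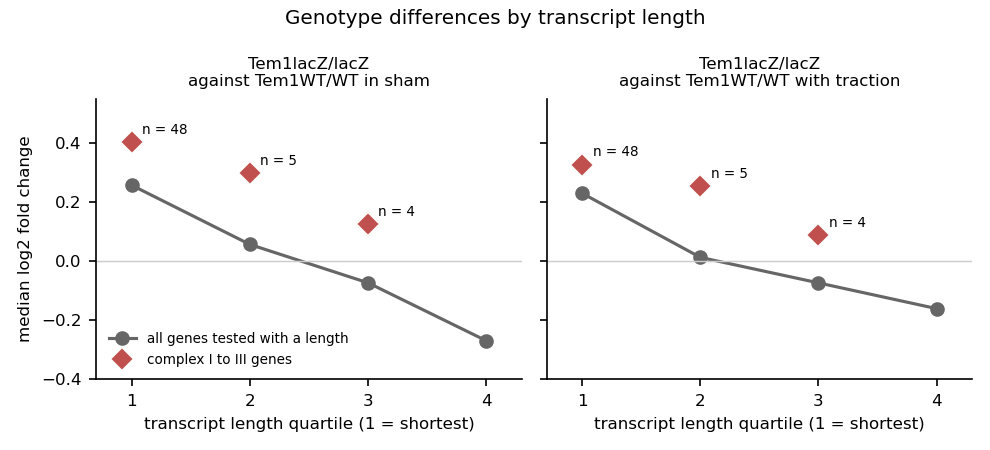
Median log2 fold change of *Tem1*lacZ/lacZ against *Tem1*WT/WT in 4 classes of transcript length, for all genes tested with a length (line) and for the respiratory chain genes (diamonds, with their number). The line falls from 0.26 to -0.27 in sham scars and from 0.23 to -0.16 with traction, and the diamonds lie above it in the 3 classes that hold them.

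With traction, the genotypes differed in the same direction but with more scatter. The log2 fold change was above 0 for 51 of 57 genes, with a median of 0.28 against 0.01 over all genes tested. An unadjusted p under 0.05 was reached by 12 genes, all higher, against 11.1% of all genes tested. The libraries did not overlap for 5 genes that were higher, against 12.9% of all genes tested, and for 1 that was lower, *Ndufa4l2*. Of the 57 genes 0 were called, where 0.106% of all genes tested were called by edgeR's quasi-likelihood test. DESeq2 called 1 of the 57, *Ndufb4*, where it called 12.4% of all genes tested. Limma-voom called 0, where it called 0.0849%.

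*Ndufb4* again had the smallest p, with 26.7, 18.3 and 23.1 CPM in lacZ traction, all above its 3 WT traction values. Its log2 fold change was 0.67 ± 0.18 (unadjusted p = 0.0028, adjusted p = 0.0951 by edgeR). *Ndufs5*, a membrane arm subunit, had 17.3, 17.9 and 18.4 CPM in WT traction and 34.4, 21.0 and 23.1 CPM in lacZ traction. *Ndufa5*, a quinone module subunit, had 19.8, 17.8 and 16.5 CPM in WT traction and 35.3, 21.1 and 23.8 CPM in lacZ traction. Neither overlapped between the genotypes and lacZ traction 1 was highest for both, with log2 fold changes of 0.55 ± 0.17 and 0.57 ± 0.19 (adjusted p = 0.106 and 0.112 by edgeR).

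*Ndufa4* and *Ndufa4l2* lay on opposite sides with traction. *Ndufa4* was at 0.53 ± 0.21, with 45.5, 35.1 and 44.9 CPM in WT traction and 78.5, 40.9 and 61.4 CPM in lacZ traction, which overlapped. After the correction for transcript length and GC content *Ndufa4* was at -0.07, so that its side was not firm. *Ndufa4l2* had 49.0, 41.6 and 33.4 CPM in lacZ traction, below every WT traction library, and was at -0.72 ± 0.33 (unadjusted p = 0.0517, adjusted p = 0.195 by edgeR). *Uqcrc1* was at -0.35 ± 0.18, with 77.1, 90.8 and 92.6 CPM in lacZ traction.

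This difference leaned on lacZ traction 1. Without it the median was 0.10, with 42 genes above 0 and 3 with an unadjusted p under 0.05. Without lacZ traction 2 the median was 0.45, and 27 of the 57 reached an unadjusted p under 0.05. Shares of all genes at that threshold were not counted in these fits. With the correction for transcript length and GC content the median was 0.01, with 33 genes above 0 and 24 below, and all genes of the shortest class had a median of 0.23 before correction.

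The 2 libraries with the highest average level of the 57 genes, lacZ sham 2 and lacZ traction 1, also had the highest sums of epidermal and hair follicle markers, 34041 and 49776 CPM against 17116 to 26641 CPM in the others. They were also among the 3 lowest libraries for fibroblast markers, with 23826.5 and 30004 CPM. The 2 libraries with most fibroblast marker counts, WT traction 3 and WT traction 2 with 122285 and 79900 CPM, held the lowest values of 20 genes each. Not every library followed this order. LacZ sham 1 stood at 0.15 in the average of the 57 genes with 17438 CPM of epidermal and hair follicle markers. WT sham 1 stood at -0.03, with 28558 CPM of fibroblast markers and 18100 CPM of skeletal muscle markers. Between the genotypes in sham scars all 20 skeletal muscle markers were below 0 in lacZ, with a median log2 fold change of -0.80, and all 12 adipocyte markers were above 0, with a median of 0.97. With traction the medians were 1.20 and 1.14, and that of the 9 neutrophil markers was -2.91. None of these markers was called. The part of these cell types in the genotype differences was not tested.

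The genotype by traction interaction compared the traction effects of the genotypes directly. Of the 57 genes 0 were called, where 0% of all genes tested were called by edgeR's quasi-likelihood test, and the smallest adjusted p was 0.548. DESeq2 and limma-voom also called 0 of the 57, where they called 0.366% and 0% of all genes tested. The median was -0.11 against 0.00 over all genes tested, with 44 genes below 0 and 13 above. Only *Sdhd* had an unadjusted p under 0.05, and it was lower, against 4.46% of all genes tested. The traction effects on these genes were thus not shown to differ between the genotypes.

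*Sdhd* had 81.1, 61.8 and 69.8 CPM in WT traction and 78.5, 56.9 and 64.6 CPM in lacZ traction. Its log2 fold change with traction was 0.20 in WT scars and -0.30 in lacZ scars, and the interaction was -0.51 ± 0.22 (unadjusted p = 0.0388, adjusted p = 0.548 by edgeR). The traction libraries of the genotypes overlapped, and the sham libraries did not. *Ndufa8*, a membrane arm subunit, had an interaction of -0.31 ± 0.20 and *Uqcrq*, a small complex III subunit, one of -0.37 ± 0.33.

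The promoters of 4 genes are shown because these genes stood at the ends of the comparisons above: *Ndufb4* and *Ndufs4* had the smallest p in genotype comparisons, *Sdhd* in the interaction, and *Uqcrc1* ran against the other genes. Each is the RefSeq window from 250 bases before to 50 bases after the start of the gene, on GRCm38.p6, written on the strand of the gene. Capitals mark matches, on either strand, to motifs of factors known to act on nuclear genes of mitochondrial proteins. The motifs were NRF1 (GCGC, any base, then TGCGC), YY1 (AAGATGGCG), ETS factors such as GABP (CCGGAAG) and ERR (TCAAGGTCA).
*Ndufb4*, chr16:37654319-37654618, minus strand: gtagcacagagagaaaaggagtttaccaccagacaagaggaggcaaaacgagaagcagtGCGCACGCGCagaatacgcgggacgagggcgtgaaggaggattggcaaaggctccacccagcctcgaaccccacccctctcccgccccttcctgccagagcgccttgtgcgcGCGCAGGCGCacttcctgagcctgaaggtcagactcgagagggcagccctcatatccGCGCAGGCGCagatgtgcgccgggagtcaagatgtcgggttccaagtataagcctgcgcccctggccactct
*Ndufs4*, chr13:114388045-114388344, minus strand: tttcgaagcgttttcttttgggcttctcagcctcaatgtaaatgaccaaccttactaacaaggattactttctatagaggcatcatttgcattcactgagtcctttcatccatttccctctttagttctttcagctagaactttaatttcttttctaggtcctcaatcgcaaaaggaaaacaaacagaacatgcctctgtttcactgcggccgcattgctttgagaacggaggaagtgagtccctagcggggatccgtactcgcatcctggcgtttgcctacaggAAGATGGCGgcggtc
*Sdhd*, chr9:50603800-50604099, minus strand: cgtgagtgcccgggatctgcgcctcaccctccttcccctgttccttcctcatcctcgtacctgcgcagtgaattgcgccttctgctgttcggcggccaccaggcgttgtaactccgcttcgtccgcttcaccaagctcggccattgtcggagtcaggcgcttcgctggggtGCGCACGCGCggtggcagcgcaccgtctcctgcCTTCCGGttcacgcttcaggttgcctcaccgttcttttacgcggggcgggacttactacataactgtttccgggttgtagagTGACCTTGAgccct
*Uqcrc1*, chr9:108936398-108936697, plus strand: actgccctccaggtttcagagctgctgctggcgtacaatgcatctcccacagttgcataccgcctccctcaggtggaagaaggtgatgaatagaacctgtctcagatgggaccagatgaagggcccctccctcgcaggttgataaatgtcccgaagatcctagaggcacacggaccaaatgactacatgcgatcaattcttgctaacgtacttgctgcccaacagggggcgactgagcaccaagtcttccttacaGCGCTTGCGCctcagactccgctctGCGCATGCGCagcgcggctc

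*Ndufb4* held 3 NRF1 matches and *Uqcrc1* held 2, *Sdhd* held 1 NRF1, 1 ETS and 1 ERR match, and *Ndufs4* held 1 YY1 match. A promoter window was found for 47 of the 57 genes. NRF1 matches were in 12 of these genes (25.5%), among them *Sdha*, *Ndufa5* and *Ndufs5*, against 5.19% of all 27025 genes with a window. YY1 matches were in 5 genes (10.6%, against 1.64% of all genes), ETS matches in 9 (19.1%, against 9.93%) and an ERR match in 1 (2.13%, against 0.466%). Counted over all 32851 promoter windows, of which a gene can have several, the shares were 4.6%, 1.4%, 8.86% and 0.423%. In all, 24 of the 47 genes held at least 1 of the motifs. The NRF1 match was shared by *Ndufb4* and *Uqcrc1*, whose log2 fold changes had opposite signs in each of the 4 comparisons of 2 groups.

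Genes of the same pathway outside the 57 were described from lists. Of the nuclear subunits of complex IV, 10 of 11 were above 0 in lacZ against WT sham scars with a median of 0.52, and of those of ATP synthase 14 of 15 with a median of 0.48. The 13 citric acid cycle enzymes had a median of 0.19, and all genes tested had one of -0.01. With traction in WT scars the medians of the 3 lists were 0.01, 0.01 and -0.31, against -0.01 over all genes tested. These values are without the correction for transcript length and GC content. No gene of the 3 lists was called in any of the 5 comparisons, where 0% to 9.15% of all genes tested were called.

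The mitochondrial DNA encodes 7 subunits of complex I and cytochrome b of complex III. Summed over these 8 genes, WT sham libraries had 22349, 20322 and 21790 CPM and WT traction libraries 17700, 15749 and 6313 CPM. The lacZ libraries had 29190, 26784 and 27939 CPM in sham and 29042, 19436 and 24541 CPM with traction. WT traction 3 was far below the other libraries, and the genotypes did not overlap in either treatment. Over all 13 mitochondrially encoded subunits the median log2 fold change was -0.78 with traction in WT scars. Of these 0 were called, and 6 were lower with an unadjusted p under 0.05, against 14.7% of all genes tested. Between the genotypes with traction the median was 1.06. Here 0 were called, and 8 were higher with an unadjusted p under 0.05, against 11.1% of all genes tested. Between the genotypes in sham scars the median of the 13 was 0.43. There 0 were called, and 2 were higher with an unadjusted p under 0.05, against 5.03% of all genes tested.

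Of 10 regulators of mitochondrial gene expression, *Ppargc1a* was the only gene called. *Ppargc1a* encodes the coactivator PGC-1alpha, which is known to raise respiratory chain genes in muscle. *Ppargc1a* fell with traction in WT scars, from 11, 7.34 and 4.21 CPM in sham to 2.12, 2.41 and 0.74 CPM with traction, and was 4.29-fold lower (adjusted p = 0.0329 by edgeR). These libraries did not overlap. Of 22 alternatives, 15 called *Ppargc1a*, and it was not called without WT sham 1 (adjusted p = 0.126 by edgeR), without WT sham 2 (adjusted p = 0.0906), without 3 other single libraries, with only the groups compared or by limma-voom. *Ppargc1a* was highest in WT sham 1, which also had the most muscle marker counts, and the part of muscle in its fall was not tested.

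Of 11 hypoxia-induced genes, all were above 0 with traction in WT scars, with a median of 0.82. *Slc2a1*, a glucose transporter gene, and *Ankrd37* passed the test, with log2 fold changes of 1.74 ± 0.47 and 0.76 ± 0.21 (adjusted p = 0.0468 and 0.0486 by edgeR). Both lay close to the threshold: 7 of 22 alternatives called each, and leaving out a library kept the call of *Slc2a1* in 2 of 12 cases and that of *Ankrd37* in 1 of 12. Without WT traction 1 the log2 fold change of *Slc2a1* was 0.93 (adjusted p = 0.109 by edgeR). The summed level of the list was 1771, 1303 and 1426 CPM in WT sham and 3842, 1698 and 1826 CPM in WT traction. WT traction 1, the highest, was also the library with 9051 CPM of neutrophil markers, and the part of these cells in the hypoxia-induced genes was not tested. In lacZ scars the median of the list was -0.33 with traction. Between the genotypes with traction all 11 genes were below 0, as *Ndufa4l2* was, with a median of -0.84 and 0 called.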

How the data were processed

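Stranded poly(A) RNA-seq libraries of 12 mouse scars, 3 in each of 4 groups, were analysed. The authors trimmed the 150-base paired-end reads with fastp 0.20.0, aligned them to GRCm38 with HISAT2 2.1.0 and counted them on genes with featureCounts 2.0.0, and they deposited the raw counts gene by gene, 1 file per library. Which annotation was counted on, whether strand was used and how multiply aligned reads were handled is not given in the sources used here, so that counts of genes with near-identical pseudogene copies are uncertain.

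In edgeR 4.0.16 (R 4.3.3), low counts were removed with filterByExpr, TMM factors were computed, and a robust quasi-likelihood model of all 4 groups was fitted, with 8 residual degrees of freedom. A gene was called when its two-sided p, adjusted after Benjamini-Hochberg across the 18853 genes tested, was under 0.05. Replicates are separate mice. No pair of libraries of a group differed by so little that they could be copies. Same-numbered libraries are different mice and their deviations correlated between -0.324 and 0.25, so that numbers were not taken as pairs. Library totals were at least 41536788 counts, and each of the 57 genes had at least 127 counts in every library.

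Transcript lengths came from GENCODE vM21 and covered 90.3% of the genes tested. For each gene the longest transcript paired with a RefSeq RNA was taken, or else the longest coding one, or else the longest. Promoter windows and coordinates came from RefSeq GRCm38.p6. Named by rule were the core subunits of complex I, the subunits of complex II, *Uqcrc1*, *Uqcrc2*, *Uqcrfs1*, *Ndufa4*, *Ndufa4l2* and the 3 genes with the smallest p in each comparison; log2 fold changes were printed for 47 pairs of a gene and a comparison, and 1 gene is not reported here. Other genes, such as *Uqcrh*, *Uqcrb*, *Ndufaf6* and *Ndufab1* for their levels, were named after their values were seen. The members and lists were chosen with earlier results of these data known. The alternatives were other filters and scalings, DESeq2 1.42.0, limma-voom 3.58.1, a fit that was not robust, only the groups compared, a replicate block, leaving out each library, and, chosen after seeing the data, a correction for transcript length and GC content. Shares of all genes at an unadjusted p under 0.05 were counted for the main edgeR fit only, not for the alternatives. The edgeR fit was tested on simulated data.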

Additional observations from a re-analysis of the deposited data

How the results depend on the processing

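In the 5 comparisons 0 members were called, and this held under every alternative run except in 3 cases. Upper quartile scaling called 1 member, *Ndufb4*, with traction in WT scars, limma-voom called 2, *Sdhb* and *Ndufaf4*, with traction in lacZ scars, and DESeq2 called 1, *Ndufb4* (adjusted p = 0.018), between the genotypes with traction. Of all genes tested, the same settings called 8.87%, 2.31% and 12.4% in these comparisons. Upper quartile scaling also moved the median of all genes to -0.12 with traction in WT scars and to 0.14 between the genotypes with traction. With the correction for transcript length and GC content, the median of the 57 genes was 0.16 between the genotypes in sham scars and 0.01 with traction.

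Leaving out each library in turn, the median between the genotypes with traction ranged from 0.10 (without lacZ traction 1) to 0.45 (without lacZ traction 2). With traction in lacZ scars it ranged from -0.38 to -0.11, without the same libraries, and was -0.15 without lacZ sham 2. It ranged from -0.18 to -0.09 with traction in WT scars, from 0.30 to 0.39 between the genotypes in sham scars and from -0.23 to 0.01 for the interaction, which turned sign without lacZ traction 2. With a replicate block the medians were -0.14, -0.26, 0.27, 0.37 and -0.13, with 0 members called.

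Signs of single values turned, not only of small ones. With traction in WT scars, the length and GC correction gave 0.08 for *Ndufv2*, 0.04 for *Uqcrfs1* and 0.28 for *Ndufa4*, and upper quartile scaling gave -0.02 for *Ndufs3*. Between the genotypes, the correction gave -0.07 for *Ndufa4* with traction and upper quartile scaling gave 0.02 for *Sdhc* in sham. Leaving out libraries with traction in WT scars, *Ndufs3* ranged from -0.06 to 0.24, *Uqcrfs1* from -0.20 to 0.05 and *Ndufa4* from -0.14 to 0.07. Between the genotypes in sham scars, *Sdha* ranged from -0.21 to 0.04, *Sdhc* from -0.09 to 0.00 and *Ndufa4l2* from -0.57 to 0.18, each highest without WT sham 1. The cause was not tested. The length and GC correction takes out any trend shared by genes of like length or GC content, whatever its source. Of 47 printed log2 fold changes, 26 moved by over 1.5 times or turned sign when some library was left out, such as *Ndufs7* between the genotypes in sham scars, from 0.04 (without lacZ sham 2) to 0.30 (without WT sham 1). The part of sequencing depth in these values was not tested. With 3 mice per group small differences could be missed.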
